A study of Mus musculus with 11 samples.

Results

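The genes described here belong to the unfolded protein response and the integrated stress response, 2 linked programmes by which a cell reacts to misfolded protein and to shortage of amino acids. The members were 10 genes taken by symbol: the sensors Eif2ak3, Ern1 and Atf6, the transcription factors Atf4, Xbp1 and Ddit3, and the targets Trib3, Asns, Chac1 and Herpud1. Each matched 1 of 48709 gene identifiers, and all 10 were among the 17293 genes that passed the filter on low counts. They were compared between 6 libraries from CamkdeltaC transgenic mice and 5 from control littermates, all aged 3 months. The RNA came from the CA1 field of the hippocampus, a brain region needed for memory, and the mice were of both sexes. In the established line of this name, a splice form of the calcium/calmodulin-dependent kinase delta is made from a transgene with a cardiac muscle promoter and the heart fails. The labels name no promoter, and give no sex, litter or batch for single libraries. They also leave unsaid whether each library came from its own animal, so the p-values measure the spread between these libraries, which may be in part technical.

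In the unfolded protein response, unfolded protein in the endoplasmic reticulum (ER) activates sensors in its membrane. PERK, the product of Eif2ak3, phosphorylates the initiation factor eIF2, which lowers general translation and raises that of ATF4. IRE1, the product of Ern1, cuts Xbp1 mRNA so that it encodes an active factor, and ATF6 is cut in the Golgi to free its own factor. The integrated stress response is the wider branch in which several kinases converge on eIF2 and ATF4. In neurons, phosphorylation of eIF2 and the level of ATF4 are known to bear on memory. The data are counts of polyadenylated RNA per gene. They hold no measure of eIF2 phosphorylation, of ATF4 protein, of ATF6 cleavage or of Xbp1 splicing.

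Known regulatory motifs of these programmes differ among the members' promoters, and the sequences below are shown because 4 targets carry the site class of ATF4 near their start, while the Atf4 promoter does not. RefSeq promoter windows on GRCm38.p6, from 250 bases before to 50 after each gene's start, were found for 9 of the 10 members. Atf6 had no entry. Each motif was searched on both strands. The core of the C/EBP-ATF response element, the site class through which ATF4 acts, was searched as TGATGNAA. It was in 4 of 9 windows (44.4%), those of Asns, Chac1, Herpud1 and Trib3, and in 3.97% of all 32851 windows. Capitals mark the match, and TTGCATCA and TTACATCA are the core read on the other strand. Starts are those of RefSeq, which can differ from the gene positions given further below. That of Asns (7693209) lies inside the span given there, and that of Trib3 (152344060) lies outside. By those spans the Asns core lies within the gene and the Trib3 core just before it.

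Asns, chr6:7693214-7693243, minus strand, with the core 23 to 16 bases before the start: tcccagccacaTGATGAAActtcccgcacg
Trib3, chr2:152344028-152344057, minus strand, with the core 14 to 21 bases after the start: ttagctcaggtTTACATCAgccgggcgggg
Chac1, chr2:119350992-119351228, plus strand, with the core 193 to 186 bases before the start: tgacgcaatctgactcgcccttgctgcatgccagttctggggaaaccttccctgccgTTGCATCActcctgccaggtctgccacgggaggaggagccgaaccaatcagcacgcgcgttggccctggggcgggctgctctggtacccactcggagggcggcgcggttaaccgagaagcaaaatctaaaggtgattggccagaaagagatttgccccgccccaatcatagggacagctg
Herpud1, chr8:94386179-94386428, plus strand, with the core 112 to 105 and an ER stress element II 52 to 42 bases before the start: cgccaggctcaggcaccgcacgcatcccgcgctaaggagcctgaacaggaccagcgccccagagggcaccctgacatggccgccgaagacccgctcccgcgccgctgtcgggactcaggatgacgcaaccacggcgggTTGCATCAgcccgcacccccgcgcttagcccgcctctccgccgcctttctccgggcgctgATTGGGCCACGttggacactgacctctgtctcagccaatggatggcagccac
Atf4, chr15:80254934-80255183, plus strand, with neither of these elements and so no capitals: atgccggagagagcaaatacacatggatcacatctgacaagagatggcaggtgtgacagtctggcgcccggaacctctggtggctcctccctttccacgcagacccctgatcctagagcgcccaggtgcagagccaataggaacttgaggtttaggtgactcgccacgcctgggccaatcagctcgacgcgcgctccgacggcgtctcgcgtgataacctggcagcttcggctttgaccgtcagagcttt

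Herpud1 was the only member whose window held an ER stress element II (ATTGG and CCACG with 1 free base between them), the site of ATF6 and XBP1 action, which 0.0365% of all windows held. None of the 9 windows held the longer ER stress element (CCAAT and CCACG with 9 free bases between them), the XBP1 element TGACGTGG or the cAMP response element TGACGTCA, which 0.119%, 0.676% and 1.79% of all windows held. The plain CCAAT box was in 5 of 9 windows, that of Atf4 included, and in 37.4% of all. Its letters start the longer ER stress element, and read on the other strand (ATTGG) they start ER stress element II. A match is a description of these letters and not a mapped binding site.

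All members but Trib3 were readily measured in CA1. Relative to exon length, Atf4 had the highest level, with a mean of 44.5 CPM per kilobase over the 11 libraries, where CPM is a gene's count scaled to a common library total. Asns followed with 28.5 CPM per kilobase, Xbp1 with 21.2, Herpud1 with 15.6 and Ddit3 with 13.0. Below these stood Atf6 with 8.65 CPM per kilobase, Eif2ak3 with 4.13, Chac1 with 3.53 and Ern1 with 2.38. Trib3, a pseudokinase that ATF4 and CHOP induce, was close to undetected at 0.180 CPM per kilobase, from 5 to 18 counts a library. Herpud1 and Ddit3 overlapped in their ranges over libraries, as did Eif2ak3 with Chac1 and Chac1 with Ern1. The other neighbours in that order did not overlap. The library with the fewest counts, control 5, held 14263784, and the others held 24403918 to 36898689.

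**Figure D1:**
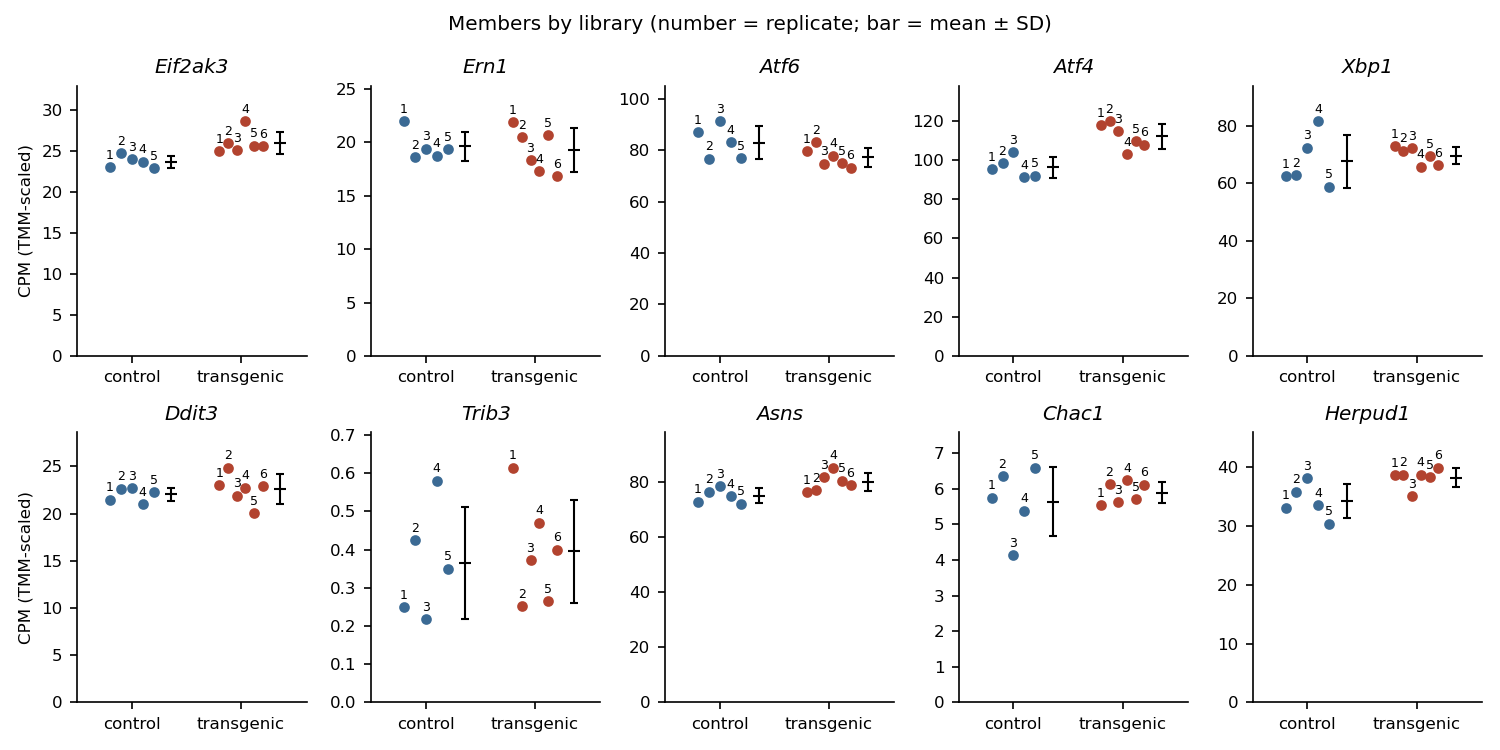
CPM of each member (vertical axis, from 0, scaled separately per gene) in 5 control and 6 transgenic libraries. Points are libraries with their replicate number, and the bar beside each group is the mean with its SD. Eif2ak3 is the member whose groups do not overlap, and Trib3 stays below 1 CPM.

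Of the 10 members, 1 passed the test between genotypes, Atf4, which was higher in transgenic libraries. The test was edgeR's quasi-likelihood test with Benjamini-Hochberg adjustment over all 17293 genes, at an adjusted p under 0.05. In that comparison 17.9% of all genes passed, 7.41% as higher and 10.5% as lower in transgenic libraries, so 1 of 10 members is not more than the share of all genes. The 10 fold changes had a median of 0.08 on the log2 scale, against 0.01 over all genes, with 8 above 0 and 2 below. An unadjusted p under 0.05 was reached by 3 members, Atf4, Eif2ak3 and Herpud1, and by 34.7% of all genes. All differences were small: in this fit, apart from Trib3, no member's interval reached 0.34 on the log2 scale in either direction.

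A trend with base composition ran through the comparison and touches each value that follows. The fold change over all genes followed the GC content of the transcript (Spearman's rho 0.68 across genes, which are not independent replicates), and each library had its own slope of log2 CPM on GC. Per 10 percentage points of GC the slope ran from -0.06 in transgenic 6 to 0.27 in transgenic 1, and in the controls from -0.22 to -0.06. Each member is therefore given also from a fit in which the library's GC trend was removed as an offset. In that fit 2.08% of all genes passed, 0.937% as higher and 1.14% as lower. None of the 10 members did, by edgeR's quasi-likelihood test, and 1 member had an unadjusted p under 0.05, against 19.1% of all genes. No other tool was run with the trend removed. The median of the members was then 0.00, with 5 above 0 and 5 below. The part of the GC trend in any single difference was not tested.

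**Figure D2:**
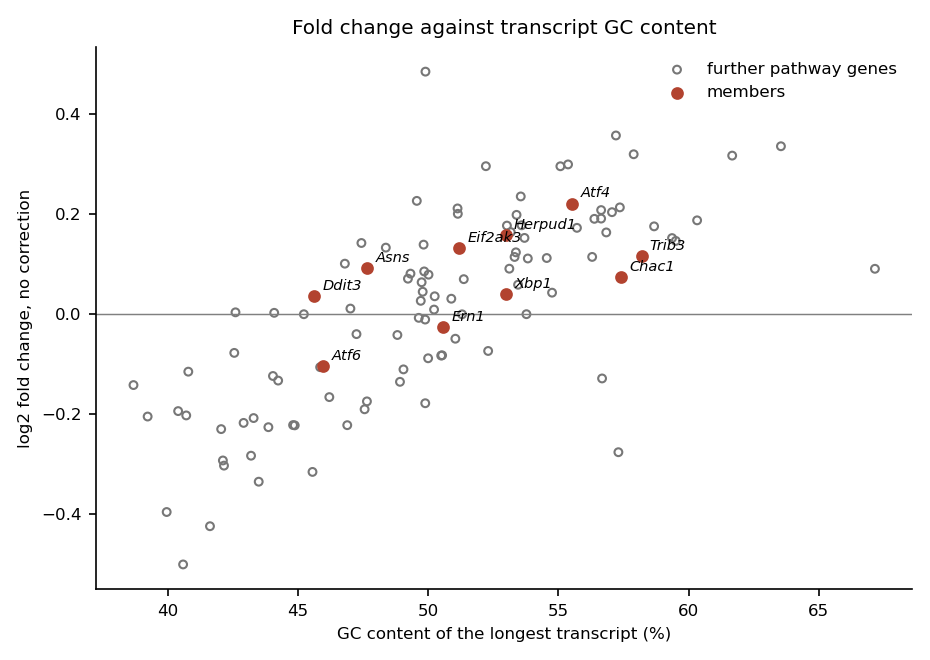
Log2 fold change of transgenic against control without correction (vertical axis) against GC content of the longest transcript (horizontal axis, percent) for the 10 members (filled) and 99 further pathway genes (open). Spearman's rho is 0.75 over the 109 genes and 0.55 over the members.

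Eif2ak3 encodes PERK, the ER-resident kinase of eIF2. It lies on chr6:70844515-70905245 (plus strand, GRCm38). Its level was 23.0, 24.7, 24.0, 23.7 and 22.9 CPM in controls 1 to 5 and 24.9, 25.9, 25.1, 28.6, 25.6 and 25.6 CPM in transgenic 1 to 6. The lowest transgenic library stood just above the highest control, so the groups did not overlap, and transgenic 4 stood above the rest of its group. Groups without overlap, higher in transgenic libraries, were seen for 3.04% of all genes. The log2 fold change was 0.13 (SE 0.05, 95% interval 0.02 to 0.25), with an edgeR Benjamini-Hochberg adjusted p of 0.0958, which missed the threshold. Removal of the GC trend left 0.05 (SE 0.05, adjusted p = 0.654). No member's groups were then free of overlap, against 1.46% of all genes higher and 2.12% lower.

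Ern1 encodes IRE1, the sensor that cuts Xbp1 mRNA (chr11:106394650-106487852, minus strand). It had 22.0, 18.6, 19.4, 18.8 and 19.4 CPM in controls 1 to 5 and 21.9, 20.5, 18.4, 17.3, 20.7 and 16.8 CPM in transgenic 1 to 6. The groups overlapped over most of their ranges, and 3 of 6 were above the control median. Its log2 fold change was -0.03 (SE 0.08, interval -0.20 to 0.15, edgeR adjusted p = 0.842), and -0.10 (SE 0.07, adjusted p = 0.521) with the GC trend removed.

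Atf6 encodes the membrane-bound factor that is freed by cleavage and induces ER chaperones (chr1:170704674-170867771, minus strand). Controls 1 to 5 had 87.0, 76.7, 91.3, 83.0 and 76.9 CPM, and transgenic 1 to 6 had 79.5, 83.1, 74.7, 77.9, 75.0 and 73.3 CPM. It was below the control median in 5 of 6 transgenic libraries, but the groups overlapped. That gave a log2 fold change of -0.10 (SE 0.06, interval -0.23 to 0.02, edgeR adjusted p = 0.204), and -0.04 (SE 0.05, adjusted p = 0.780) without the GC trend. Thus no sensor gene passed the test in either fit.

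Atf4, the effector of the integrated stress response, was the member that rose. It lies on chr15:80255184-80257541 (plus strand) with 2358 exonic bases. It had 95.3, 98.2, 104.0, 91.3 and 91.9 CPM in controls 1 to 5 and 117.8, 119.7, 114.5, 103.0, 109.7 and 107.8 CPM in transgenic 1 to 6. All 6 transgenic libraries were above the control median, and the groups touched only where control 3 exceeded transgenic 4. Means were 112 ± 6.37 CPM (SD, n = 6) in transgenic and 96.1 ± 5.20 CPM (SD, n = 5) in control libraries. In the test the log2 fold change was 0.22 (SE 0.05, interval 0.11 to 0.33), with an adjusted p of 0.0178 by edgeR's quasi-likelihood test.

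Atf4 did not pass once the GC trend was removed, where its log2 fold change was 0.06 (SE 0.04, interval -0.04 to 0.15, edgeR adjusted p = 0.540). Its longest transcript had 55.5% GC, against a median of 49.6% over the tested genes. The call held in 10 of 11 fits with 1 library left out and was lost without control 4 (0.20, adjusted p = 0.0514). In the authors' deposited table Atf4 was higher in transgenic mice with a log2 fold change of 0.21 and an adjusted p of 0.00110. The other 9 members were in neither of the authors' deposited tables, of 1780 higher and 2014 lower genes.

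Xbp1 encodes the factor that IRE1 activates, which induces chaperones and ER degradation genes (chr11:5520659-5525893, plus strand). Controls 1 to 5 had 62.5, 63.0, 72.4, 81.6 and 58.9 CPM, and transgenic 1 to 6 had 72.9, 71.4, 72.2, 65.8, 69.4 and 66.4 CPM. Controls 3 and 4 were among the highest libraries and the other 3 controls were the lowest of all 11, and the control SD of 9.26 CPM exceeded the SD of 3.00 CPM in transgenic libraries. The log2 fold change was 0.04 (SE 0.08, interval -0.12 to 0.20, edgeR adjusted p = 0.747), and -0.08 (SE 0.07, adjusted p = 0.602) with the GC trend removed. Without controls 3 and 4 it was 0.18 (SE 0.05, adjusted p = 0.0987), and 0.07 (SE 0.04, adjusted p = 0.457) with the GC trend also removed, so neither passed the test.

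Ddit3 encodes CHOP, a factor linked to cell death in prolonged ER stress (chr10:127290774-127296288, plus strand). It had 21.5, 22.6, 22.7, 21.0 and 22.3 CPM in controls 1 to 5 and 23.0, 24.9, 21.9, 22.7, 20.0 and 22.9 CPM in transgenic 1 to 6. The highest and the lowest of the 11 libraries were both transgenic, and the groups overlapped. Its log2 fold change was 0.04 (SE 0.06, interval -0.09 to 0.17, edgeR adjusted p = 0.708), and 0.12 (SE 0.06, adjusted p = 0.348) with the GC trend removed. Ddit3 shares its locus with Mars, a tRNA synthetase gene on the other strand with up to 2037 counts a library. The kit does not mark strand, so reads in shared stretches cannot be assigned to either gene.

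Among the targets, Asns encodes asparagine synthetase, which ATF4 induces when amino acids are short (chr6:7675169-7693254, minus strand). Controls 1 to 5 had 73.0, 76.6, 78.7, 75.1 and 72.2 CPM, and transgenic 1 to 6 had 76.4, 77.3, 81.8, 85.3, 80.6 and 79.0 CPM. All 6 transgenic libraries were above the control median, with overlap between the groups. Asns had a log2 fold change of 0.09 (SE 0.04, interval 0.00 to 0.19, edgeR adjusted p = 0.163). After removal of the GC trend it was 0.11 (SE 0.04, interval 0.03 to 0.19), with an unadjusted edgeR p of 0.0131 and an adjusted p of 0.139. Asns, with 47.7% GC, was the member with an unadjusted p under 0.05 in that fit. It did not pass the test in any of the 25 alternatives tried.

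Herpud1 encodes an ER membrane protein of the degradation complex that strips misfolded protein from the ER (chr8:94386438-94395377, plus strand). It had 33.2, 35.9, 38.1, 33.6 and 30.4 CPM in controls 1 to 5 and 38.7, 38.8, 35.1, 38.8, 38.4 and 39.9 CPM in transgenic 1 to 6. Transgenic 3 lay within the control range and the other 5 lay above it. Herpud1 had a log2 fold change of 0.16 (SE 0.06, interval 0.03 to 0.29, edgeR adjusted p = 0.0814), and 0.04 (SE 0.06, adjusted p = 0.800) with the GC trend removed. Without control 3 the uncorrected value was 0.20 and passed at an adjusted p of 0.0497.

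Chac1 encodes an enzyme that degrades glutathione and is induced through ATF4 (chr2:119351229-119354381, plus strand). Controls 1 to 5 had 5.75, 6.35, 4.13, 5.38 and 6.59 CPM, and transgenic 1 to 6 had 5.53, 6.12, 5.62, 6.23, 5.71 and 6.11 CPM. All transgenic values lay within the control range. The log2 fold change was 0.07 (SE 0.11, interval -0.17 to 0.32, edgeR adjusted p = 0.682), and -0.11 (SE 0.11, adjusted p = 0.653) with the GC trend removed.

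Trib3 (chr2:152337422-152344032, minus strand) had 0.250, 0.425, 0.217, 0.580 and 0.351 CPM in controls 1 to 5 and 0.615, 0.252, 0.372, 0.470, 0.266 and 0.400 CPM in transgenic 1 to 6. The groups overlapped almost fully, and the CPM varied over libraries by 35.1% of its mean, against 4.95% to 11.5% for the other members. Its log2 fold change of 0.12 (SE 0.32, interval -0.56 to 0.79, edgeR adjusted p = 0.828) leaves a wide range, and with the GC trend removed it was -0.08 (SE 0.31, adjusted p = 0.926), so a moderate difference was not detectable at this depth. None of the 4 members with a C/EBP-ATF core near the start (Asns, Chac1, Herpud1 and Trib3) passed the edgeR test in either fit, and of these 4 Herpud1 had an unadjusted p under 0.05 without correction and Asns with the GC trend removed.

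**Figure D3:**
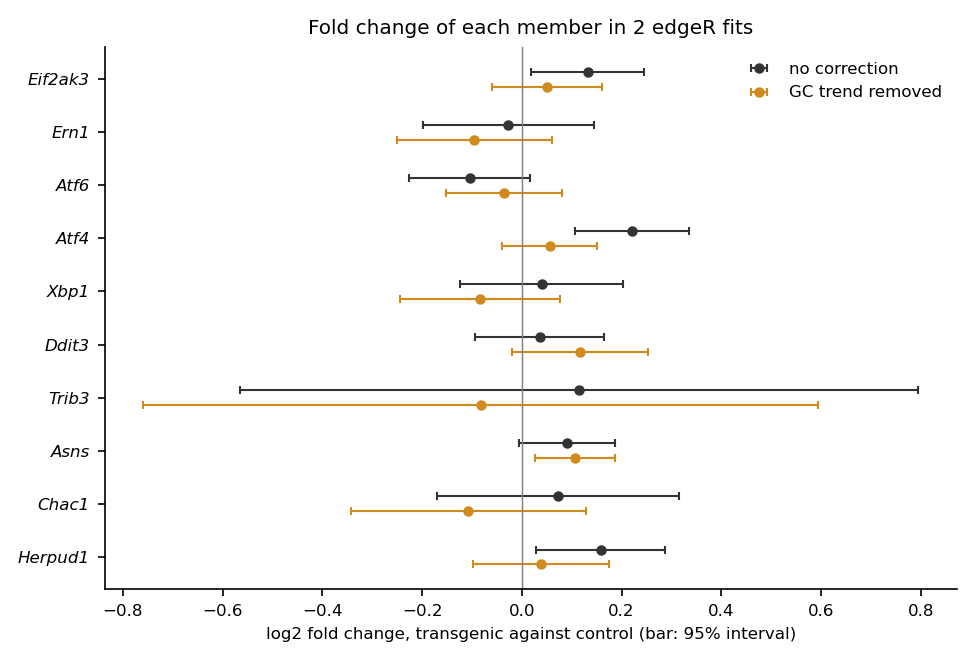
Log2 fold change of transgenic against control (horizontal axis) for each member in the edgeR fit without correction and in the fit with the GC trend removed; bars are 95% intervals. Without correction the intervals of Atf4, Eif2ak3 and Herpud1 lie above 0, and with the trend removed that of Asns does.

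The members did not vary together across libraries. With each group's mean subtracted, the 45 pairs of members had a median Pearson r of 0.05 over 11 libraries. Eif2ak3 and Asns had the highest r, 0.75, which was also 0.75 with the GC trend removed, and Atf6 and Chac1 the lowest, -0.67. These values and those that follow are descriptions over the same 11 libraries, with no test. Among 10626 genes with a mean log2 CPM of at least 3, Itpk1, an inositol phosphate kinase gene (r = 0.97), Ormdl3, which encodes an ER regulator of sphingolipid synthesis (0.94), and Pofut2, which encodes an ER fucosyltransferase (0.92), were most like Atf4. Those most like Ddit3 were Blvrb (0.94), Vps35l (0.90) and Slc3a2 (0.90), the last at 0.36 with the GC trend removed. Those most like Xbp1 were Cd2bp2 (0.95), Mrps6 (0.93) and Dnajb11 (0.93), and the third of these encodes an ER co-chaperone.

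Across all 11 libraries Xbp1 varied with the ER chaperone genes, and without controls 3 and 4 it did so much less. With group means subtracted, its median r with 20 chaperone and foldase genes was 0.62 (median Spearman's rho 0.61), and 9 of the 20 had an r over 0.7, against 2.74% of all genes. With the GC trend removed the median was 0.77 (median Spearman's rho 0.76), and 11 of 20 were over 0.7, against 2.80% of all genes. Over the 9 libraries without controls 3 and 4 the median r was 0.33 and the median rho 0.08. Of the 20 genes 2 were then over 0.7, against 9.04% of all genes. With the GC trend removed the medians were 0.39 and 0.25, with 3 of 20 over 0.7, against 3.15% of all genes. Controls 3 and 4 were picked after the data were seen, and were the highest controls in Xbp1 and in the chaperone list. A weaker correlation without them was thus largely fixed by the choice.

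The further genes of these programmes were read from 7 lists with 101 genes, of which 99 were tested. Without correction 13 rose and 12 fell in transgenic libraries, and with the GC trend removed 1 rose and 1 fell. Of all genes 17.9% passed without correction and 2.08% with the GC trend removed, so the 2 of 99 in the second fit stand at about the share of all genes. The uncorrected median was 0.03, near the 0.01 of all genes. With 1 library left out, the uncorrected count of 25 became 5 to 38. It was below 17 without control 1, 3, 4 or 5 or transgenic 1, 2, 3 or 4, and it was 38 without transgenic 6. Calls over all genes moved too, from 1155 without control 4 to 4712 without transgenic 6, against 3094 with all 11 libraries. Of the 25 calls, those of Eif2b2, Bax, Edem3 and Os9 held in all 11 of these fits.

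Upstream of Atf4, the list of the other eIF2 kinases, eIF2 and its exchange factor eIF2B had 1 of 11 genes called, against 17.9% of all genes. Eif2b2, an eIF2B subunit, rose by 0.30 on the log2 scale (SE 0.06, edgeR adjusted p = 0.0132), from 24.7 to 27.1 CPM in controls to 28.2 to 34.6 CPM in transgenic libraries. Its groups did not overlap, as for 3.04% of all genes in that direction. It was at 0.14 (adjusted p = 0.136) with the GC trend removed. None of the 11 then passed, and 4 had an unadjusted p under 0.05, against 19.1% of all genes.

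The list of ISR feedback genes and leucine zipper partners had 3 of 12 called, against 17.9% of all genes. Atf5, a factor close to Atf4 in sequence, rose by 0.32 (SE 0.09, edgeR adjusted p = 0.0320). Dnajc3, which encodes an inhibitor of PERK, fell by 0.28 (SE 0.09, adjusted p = 0.0393), and Impact, which encodes an inhibitor of the eIF2 kinase GCN2, fell by 0.29 (SE 0.09, adjusted p = 0.0414). After GC removal they were at 0.08, -0.11 and -0.08, and none of the 12 passed or reached an unadjusted p under 0.05. The calls held in 6, 3 and 2 of the 11 fits with 1 library left out.

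Amino acid genes that ATF4 is known to induce had 6 of 19 called, all higher, with a list median of 0.12. Of all genes 7.41% were called as higher and 17.9% in either direction. Phgdh, the first enzyme of serine synthesis, rose by 0.36 (SE 0.09, edgeR adjusted p = 0.0228), from 15.8 to 19.0 CPM in controls to 18.4 to 27.2 CPM in transgenic libraries. Slc3a2, an amino acid transporter subunit, rose by 0.20 (SE 0.05, adjusted p = 0.0264), and the tRNA synthetase genes Aars and Sars rose by 0.19 (adjusted p = 0.0270) and 0.18 (adjusted p = 0.0320), each with an SE of 0.05. Psph (0.23) and Shmt2 (0.21), named after their values were seen, were the other two. GC removal brought the list median to 0.02, none of the 19 passed, and 1 had an unadjusted p under 0.05, against 19.1% of all genes. The 6 calls held in 1 to 7 of the 11 fits with 1 library left out.

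The ATF6 family and its proteases had 2 of 9 called, again against 17.9% of all genes. Creb3, a membrane-bound factor of the ATF6 type, rose by 0.23 (SE 0.06, edgeR adjusted p = 0.0205), and Mbtps2, the second protease that frees ATF6, fell by 0.40 (SE 0.12, adjusted p = 0.0336). Of the IRE1 partners 2 of 7 were called, both higher, against 7.41% of all genes: Bax, a cell death effector that binds IRE1, rose by 0.34 (SE 0.08, adjusted p = 0.0172), and Tmbim6, an inhibitor of IRE1, by 0.18 (SE 0.05, adjusted p = 0.0289). After GC removal these were at 0.10, -0.09, 0.07 and 0.05, and neither list had a gene that passed. An unadjusted p under 0.05 was then reached by 1 of 9 and 2 of 7, against 19.1% of all genes. With 1 library left out, the calls of Creb3, Mbtps2, Bax and Tmbim6 held in 9, 4, 11 and 5 of 11 fits.

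**Figure D4:**
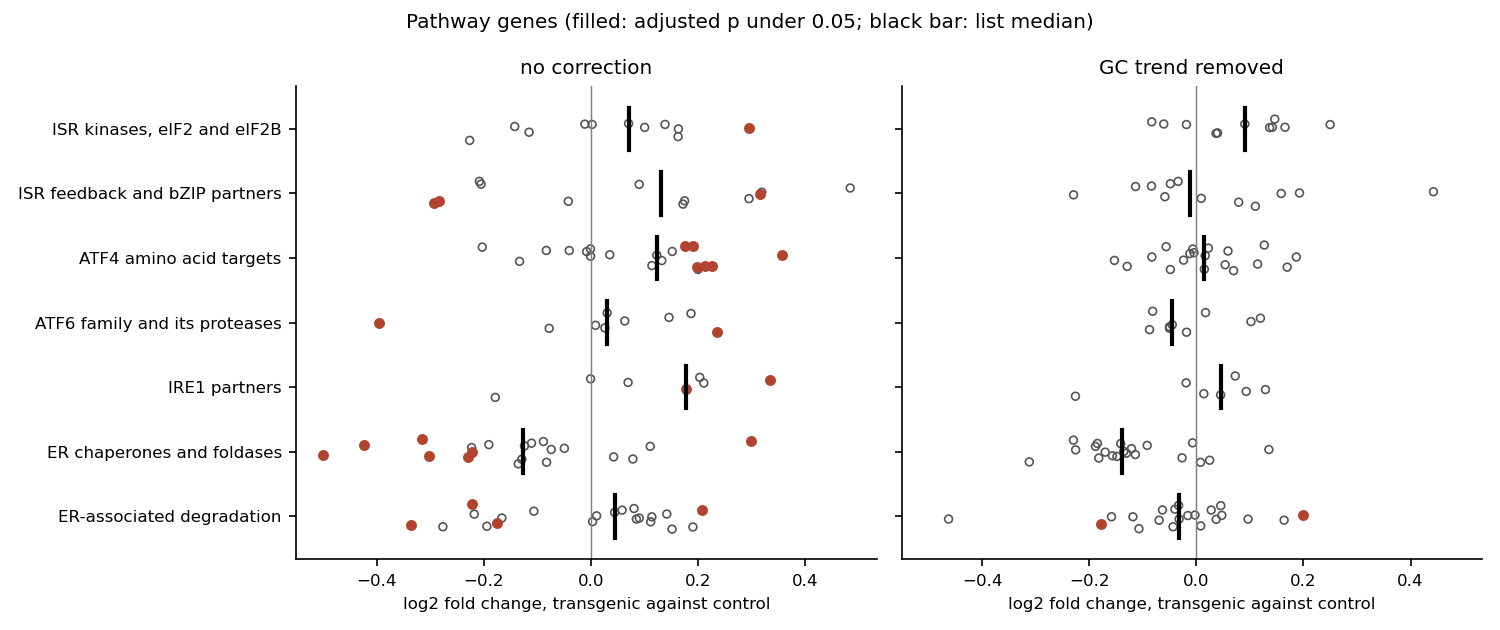
Log2 fold change of each tested gene in the 7 pathway lists (horizontal axis), without correction on the left and with the GC trend removed on the right. Points are genes, filled where the adjusted p is under 0.05, and black bars are list medians; the left panel holds 25 filled points and the right panel 2.

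The ER chaperones and foldases were the list with a negative median in both fits, -0.13 without correction and -0.14 with the GC trend removed, with 16 and 17 of 20 below 0. Of all 17293 genes, 8383 were below 0 without correction and 9883 with the GC trend removed. Without correction 6 chaperone genes fell and 1 rose, where 10.5% of all genes were called as lower and 7.41% as higher. Ero1l, the oxidase that drives disulfide formation, fell by 0.42 (SE 0.10, edgeR adjusted p = 0.0190), Canx, a lectin chaperone, by 0.30 (SE 0.08, adjusted p = 0.0241), and Dnajb9, a co-chaperone that restrains IRE1, by 0.50 (SE 0.15, adjusted p = 0.0392). Sil1, an exchange factor for the chaperone BiP, rose by 0.30 (SE 0.08, adjusted p = 0.0246). Hspa5, the gene of BiP, Hsp90b1 and Pdia3, named after their values were seen, fell by 0.32, 0.23 and 0.22. After GC removal none of the 20 passed, and 8 had an unadjusted p under 0.05, against 19.1% of all genes. With each library left out in turn, the call of Ero1l held in 10 of 11 fits and was lost without control 5 (adjusted p = 0.0522), and those of the other 6 held in 2 to 5.

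The list median of the chaperones lay nearer 0 without 2 control libraries, picked after the data were seen. Hspa5 had 241, 216, 302, 329 and 237 CPM in controls 1 to 5 and 228, 216, 224, 195, 205 and 211 CPM in transgenic 1 to 6. Controls 3 and 4 stood above all others, and the remaining controls were at or just above the transgenic range. Over the whole list the median deviation from each gene's mean was 0.18 in control 3 and 0.23 in control 4, and -0.17 to 0.00 in the other 9 libraries. With only control 3 or only control 4 left out, the list median was -0.10 and -0.07, with 15 and 14 of 20 genes below 0. With the GC trend also removed it was -0.12 and -0.09, with 15 and 16 below 0. Without GC removal 1 chaperone gene was called in each of these fits, and Ero1l passed in both (edgeR adjusted p of 0.0377 and 0.0391). Calls over the genes tested both there and with all libraries were 1570 of 17239 and 1155 of 17247, against 3094 with all libraries. An unadjusted edgeR p under 0.05 was reached by 10 and 9 of the 20 chaperone genes, against 9 with all libraries. Over those 17239 and 17247 genes it was reached by 5336 and 4976. Without both controls the list median was -0.02, with 10 genes above and 10 below 0. As these were the 2 highest controls in this list, a median nearer 0 without them was fixed by the choice. Hspa5 was then at -0.12 (adjusted p = 0.274), Dnajb9 at -0.35 (0.251), Canx at -0.22 (0.172) and Ero1l at -0.50 (0.0798). Ero1l, highest in controls 1 and 5 with 31.1 CPM in each, was thus no closer to 0 without controls 3 and 4. None of the 20 passed the edgeR test, with 4 at an unadjusted p under 0.05. Nor did any of the 17223 genes tested both in this smaller fit and with all libraries, of which 4115 had an unadjusted p under 0.05. Atf4 in that fit was at 0.24 (SE 0.06, adjusted p = 0.0809).

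Markers of neighbouring tissue stood apart in control 3 but not clearly in control 4. Summed over the 7 tested markers of dentate gyrus and CA3, control 3 had 295 CPM, control 4 had 212 and the other 9 libraries had 110 to 203. Choroid plexus markers summed to 54.4 CPM in control 3 and to 13.0 in control 4, against 13.2 to 31.7 in the others. Their part in the chaperone and Xbp1 levels was not tested.

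**Figure D5:**
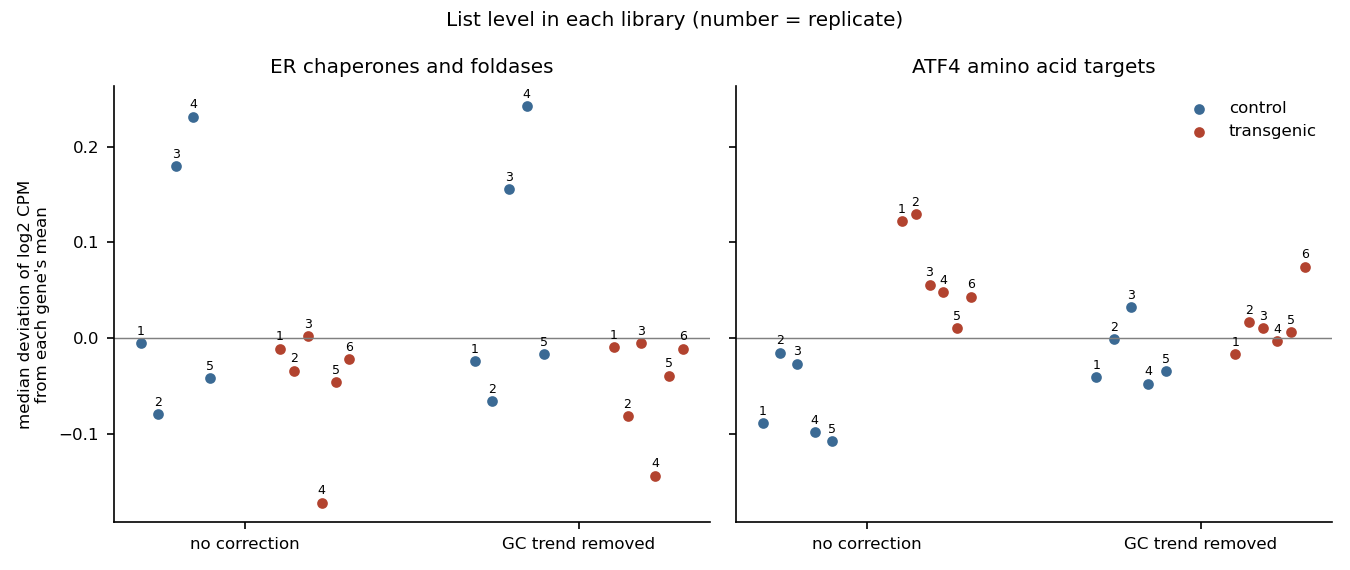
Median deviation of log2 CPM from each gene's mean over all 11 libraries (vertical axis) for the ER chaperones and foldases and for the ATF4 amino acid targets, by library (number is the replicate), without correction and with the GC trend removed. For the chaperones, controls 3 and 4 lie at 0.18 and 0.23 without correction and at 0.16 and 0.24 with the trend removed, above the other 9 libraries.

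In ER-associated degradation, the process that Herpud1 serves, 1 of 21 genes rose and 3 fell, where 7.41% of all genes were called as higher and 10.5% as lower. Edem3, which trims mannose from misfolded glycoproteins, had 71.9, 67.8, 75.8, 81.8 and 78.0 CPM in controls 1 to 5 and 58.1, 54.9, 59.2, 57.4, 61.9 and 65.2 CPM in transgenic 1 to 6. It fell by 0.34 (SE 0.06, edgeR adjusted p = 0.0111) without overlap, which 4.73% of all genes showed in that direction. With the GC trend removed it fell by 0.18 (SE 0.04, adjusted p = 0.0445), again without overlap, as for 2.12% of all genes in that direction. That second call held in 2 of 11 fits with 1 library left out, those without transgenic 6 and without control 2. Without the others the value stayed between -0.19 and -0.15, with an adjusted p of 0.0630 to 0.125. In the GC-adjusted fits without transgenic 1, 2, 3 or 4 or control 1, 4 or 5, no gene at all passed, so no call could hold there. With GC and length trends removed together, none of the 21 genes, Edem3 included, was called as lower, and 1 was called as higher.

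Os9, a lectin that hands misfolded protein to the degradation complex, rose by 0.21 (SE 0.05, edgeR adjusted p = 0.0143), and was at 0.03 with the GC trend removed. Ube2j1, an ER ubiquitin-conjugating enzyme, and Sel1l, the scaffold of that complex, fell by 0.22 (SE 0.07, adjusted p = 0.0401) and 0.17 (SE 0.06, adjusted p = 0.0479), and were at -0.12 and -0.16 with the trend removed. Their calls held in 2 and 3 of 11 fits with 1 library left out. Herpud2, the paralog of Herpud1, was at 0.00 (SE 0.04, adjusted p = 0.967) without correction and rose by 0.20 (SE 0.04, adjusted p = 0.0392) with the GC trend removed. That call held in 3 of 11 fits with 1 library left out. As for Edem3, it could not hold in the fits where no gene at all passed.

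The dissected tissue carried all 8 markers of CA1 pyramidal cells, none of which passed the test between genotypes, with summed levels of 5638 to 7907 CPM in transgenic and 5860 to 6829 CPM in control libraries. Without correction the log2 fold change was above 0 for 7 of 8 microglia (median 0.26), 8 of 8 CA1 (0.16) and 7 of 8 oligodendrocyte markers (0.24). It was above 0 for 4 of 8 astrocyte, 3 of 8 endothelial and mural, 2 of 7 dentate and CA3 and 0 of 5 choroid plexus markers. Over all genes it was so for 8910 of 17293. Of the microglia markers 4 of 8 were called as higher without correction, against 7.41% of all genes. With the GC trend removed none was called, against 0.937% of all genes. Microglia markers summed to 290 to 388 CPM in transgenic libraries and 261 to 317 CPM in controls. Of 8 astrocyte markers 1 was higher and 1 lower, and of 8 endothelial and mural markers 2 were lower. None of 8 oligodendrocyte, 7 dentate and CA3 or 5 choroid plexus markers passed by edgeR's test. Without correction 2, 3 and 1 of them had an unadjusted p under 0.05, as did 3 of the CA1 markers and 34.7% of all genes. The dentate marker Iyd and the choroid plexus marker Folr1 were too low to be tested. In bulk tissue fewer cells of a type and less RNA per cell cannot be told apart, and the part of cell composition in the members' values was not tested.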

How the data were processed

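The authors deposited raw counts per gene for each library, for Ensembl identifiers on mm10. Libraries of polyadenylated RNA were made, per the labels, with a TruSeq v2 kit, which does not mark strand, and read as 50-base single ends. Per the submitters' processing notes, the tools included STAR 2.5.2b, Subread 1.5.1, featureCounts and FastQC 0.11.5. No source used here gives their settings. Tables the authors deposited hold their own log2 fold changes with adjusted p-values. The normalized signal per library in those tables, deposited by the authors, was not used.

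The samples were grouped by the genotype in their titles. Symbols, positions, lengths and transcript GC content came from the GENCODE annotation of the same build: 48349 identifiers had a name and 360 did not, and 17246 tested genes had a GC value. Counts were filtered with filterByExpr, which kept 99.9% of all counts, scaled with TMM and tested with edgeR 4.0.16 in R 4.3.3 (quasi-likelihood F test, all 11 libraries, no covariate, Benjamini-Hochberg adjustment, adjusted p under 0.05). Each SE is the fold change divided by the root of its F statistic. GC removal used a lowess curve per library (span 0.3) of the deviation of log2 CPM (prior count 2) on GC content, entered as an offset. CPM is TMM-scaled. Promoter sequences are from RefSeq. The procedure was tested on simulated data.

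The members, lists and the GC correction were chosen with earlier results of these data known. Named pathway genes were up to 4 called genes of each list with the smallest p, plus any called with the GC trend removed. Alternatives were DESeq2 1.42.0, its size factors, upper-quartile scaling, other filters, limma 3.58.1 voom with sample weights, a replicate block, sva 3.50.0 with 1 surrogate variable, the Xist level as covariate, length and GC trends, and each library left out. Leaving out controls 3 and 4 together was chosen after seeing the data. Chi-square per degree of freedom between libraries of one group was at least 6.71 and at most 56.5, so none was merged.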

Additional observations from a re-analysis of the deposited data

Results flagged for a closer look

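Single libraries stood apart from the rest of their group in 4 of 62 groups checked (31 genes in 2 genotypes), and chance would give about 1 in 20. Ern1 had 22.0 CPM in control 1, against 18.6 to 19.4 in the other controls. Eif2ak3 had 28.6 CPM in transgenic 4, against 24.9 to 25.9 in the other transgenic libraries. Herpud1 had 35.1 CPM in transgenic 3, against 38.4 to 39.9 in the others of its group. Impact had 303.2 CPM in transgenic 6, against 201 to 236 in the others.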

How the results depend on the processing

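Atf4 stayed above 0 in all 25 alternatives (0.04 to 0.25) and passed in 20. It did not pass with the GC trend removed (0.06), with that and a replicate block (0.05), with GC and length trends removed (0.04), nor without control 4 or controls 3 and 4. Eif2ak3, Asns and Herpud1 also stayed above 0 throughout, and of these Herpud1 passed once, without control 3. Atf6, Ern1, Xbp1, Ddit3, Trib3 and Chac1 never passed and changed sign in 1 to 6 alternatives each. The number of members called was 1 and became 0 in the same 3 fits with the GC trend removed, and without controls 3 and 4. With 1 library left out it was 0 to 2. With the GC trend removed it was 0 in all 14 alternatives to that fit. Of these, no gene at all passed without transgenic 1, 2, 3 or 4, control 1, 4 or 5, or controls 3 and 4. In those fits the 0 says nothing particular to the members.

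Over all genes the 3094 calls became 360 with the GC trend removed, 226 with GC and length trends removed, 4774 with limma voom and sample weights, 0 without controls 3 and 4 and 1155 to 4712 with 1 library left out. For the further pathway genes the 25 calls became 2, 1 and, without filter, 14, then 0 without controls 3 and 4 and 5 to 38 with 1 library left out. DESeq2 called 3913 genes, 32 of these pathway genes and 1 member. A fit without a library also holds fewer libraries, and the causes of these shifts were not tested.

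Same-numbered libraries did not vary together (correlations of -0.19 to 0.20), and the main fit did not pair them. Such values cannot exclude a litter or batch shared by number. With a replicate block 4594 genes, 36 further pathway genes and 1 member passed, and with the block and the GC trend removed 750, 4 and 0. Among the members, Trib3, with 5 to 18 counts a library, had the widest interval.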
